A study of Mus musculus with 12 samples.

Results

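The repressor side of the circadian clock in mouse liver is described here as 10 genes: the period genes Per1, Per2 and Per3, the cryptochromes Cry1 and Cry2, Ciart (also called Chrono), the REV-ERB receptor genes Nr1d1 and Nr1d2, and the DEC genes Bhlhe40 and Bhlhe41. They were chosen by gene symbol, for their known role in the clock, with earlier results of these data known. All 10 are among the 17432 genes of the deposited liver RNA-Seq table. Sedentary and Exercise livers, 6 of each, came from male wild-type C57BL/6J mice aged 8 to 10 weeks, an inbred laboratory strain with no engineered allele in either group. Both groups shared 3 days of daytime feeding from 9 to 15 h with the night fasted, treadmill acclimation at 10 m/min, and refeeding at 9 a.m. on day 4 with food taken away at 12 h. The Exercise group then ran at 14 m/min for 3 hours while the Sedentary group stayed at rest, and all livers were collected when running ended. Lights went on and off in a 12 h cycle whose clock hour is not given in the sources used here, so the livers show a single time under imposed daytime meals and carry no phase.

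In the mammalian clock, the transcription factors CLOCK and BMAL1 (encoded by Arntl) bind E-boxes and switch on the genes for their own repressors. PER and CRY proteins bind CLOCK and BMAL1 and block them, CIART does so as a further brake, and the DEC proteins compete for the same E-boxes. REV-ERB receptors act in a second loop, where they repress Arntl at sites that ROR receptors activate. In liver this clock times glucose, lipid and bile acid metabolism, and it follows meal times. Per1 and Per2 are also known as quickly induced genes, through cAMP and CREB, through the glucocorticoid receptor and, for Per2, through heat shock factor.

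The E-box and its relatives can be read in the promoters of the members. The RefSeq promoter table (build GRCm38.p6, from 250 bases before to 50 bases after each annotated start) held 9 promoters of 8 members, with 2 starts for Per1. No entry was found for Per2 and Bhlhe40. Printed below are the bases before the start for the Ciart, Cry1, Per1 and Per3 promoters, because the first 3 belong to members that rose and hold an E-box and the last holds a pair of D-boxes. They read 5′ to 3′ on the gene's strand, with the E-box CACGTG and the D-box (TTATGNAA or TTACGNAA, the site of the PAR bZIP factors and NFIL3) in capitals. The Ciart window is chr3:95882229-95882478 on the minus strand, 23 bases of which lie in an exon of GENCODE. The Cry1 window is chr10:85185055-85185304 on the minus strand, with 10 bases in an exon. The Per1 window is chr11:69098699-69098948 on the plus strand, inside the Per1 gene as GENCODE draws it, with 1 base in an exon. The Per3 window is chr4:151044766-151044915 on the minus strand, outside annotated exons of Per3, and covers positions -250 to -101 before the start.
Ciart: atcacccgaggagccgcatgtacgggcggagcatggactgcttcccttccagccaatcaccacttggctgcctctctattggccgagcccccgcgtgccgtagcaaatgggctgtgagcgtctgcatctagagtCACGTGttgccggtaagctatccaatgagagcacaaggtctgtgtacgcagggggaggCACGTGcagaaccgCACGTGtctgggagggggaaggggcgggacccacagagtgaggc
Cry1: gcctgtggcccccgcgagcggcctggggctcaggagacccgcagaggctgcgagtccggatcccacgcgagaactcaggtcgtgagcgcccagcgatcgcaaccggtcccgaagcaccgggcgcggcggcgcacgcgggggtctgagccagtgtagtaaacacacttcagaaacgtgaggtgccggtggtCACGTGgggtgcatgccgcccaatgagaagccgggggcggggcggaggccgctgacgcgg
Per1: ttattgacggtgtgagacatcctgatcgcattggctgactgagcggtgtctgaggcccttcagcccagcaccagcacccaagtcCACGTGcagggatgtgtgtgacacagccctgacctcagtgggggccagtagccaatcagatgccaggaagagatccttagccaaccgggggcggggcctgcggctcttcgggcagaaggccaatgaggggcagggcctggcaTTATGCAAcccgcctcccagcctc
Per3: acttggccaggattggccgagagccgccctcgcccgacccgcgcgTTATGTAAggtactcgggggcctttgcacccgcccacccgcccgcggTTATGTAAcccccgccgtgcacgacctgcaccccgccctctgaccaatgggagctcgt

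Ciart held 3 E-boxes, with first bases at positions -116, -58 and -44. At least 3 E-boxes were found in 29 of the 32851 promoters of the table (0.0883%), and at least 1 in 7.15%. Cry1 (-60), Per1 (-166) and Bhlhe41 (-153) held 1 E-box each, so 4 of 9 member promoters carried one. The E-prime box CACGTT, a weaker variant, was found in Cry1, Cry2 and Nr1d1 and in 4.68% of all promoters. D-boxes were found in Per1 (-24) and in Per3 (-205 and -158), and in 3.99% of all promoters. The RORE core AGGTCA, the letters REV-ERB and ROR bind, was found in Nr1d2 and Per1 and in 16.3% of all promoters, and the longer RORE TAGGTCA in no member and 2.61% of all. The CRE core TGACG, bound by CREB, was found in Per1, Cry1 and Cry2 and in 20.8% of all promoters, and the whole CRE TGACGTCA in no member and 1.79% of all. The letters of the glucocorticoid receptor (ACANNNTGT, 6.85% of all promoters) and of heat shock factor (TTCNNGAA or GAANNTTC, 15.1% of all) matched in no member window. All motifs were searched on both strands and the RORE and CRE cores overlap their longer forms. A match says only that the letters are there. Cry2, Nr1d1 and Nr1d2, which also rose, held no E-box in their windows, and a link between motifs and change was not tested.

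**Figure D1:**
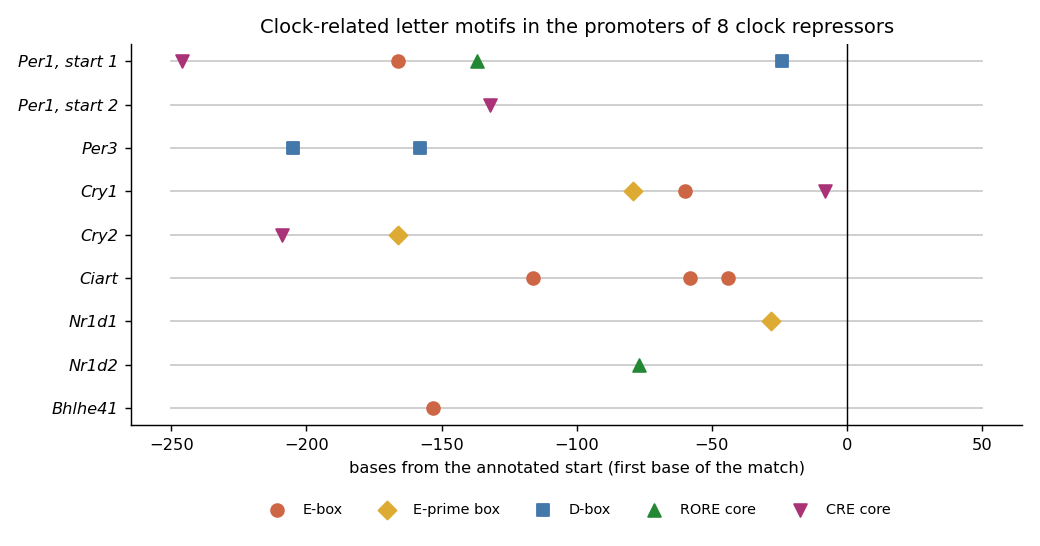
Positions of clock-related letter motifs in 9 promoters of 8 members, as bases from the annotated start (x axis, from -250 to 50), with 1 row for each promoter. The 3 E-box marks of Ciart and the 2 D-box marks of Per3 stand out against rows with 1 E-box or none.

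Of the 10 members, 9 had enough counts to be tested and 8 of these changed after exercise, 6 higher and 2 lower, at an adjusted p under 0.05 (edgeR, quasi-likelihood F test, false discovery rate controlled over every gene tested). This stands beside 42.4% of all 12344 genes tested, 21.1% higher and 21.3% lower. Because the members were chosen with earlier results of these data known, the comparison is a description. The 6 that rose were Ciart, Per1, Nr1d2, Cry1, Nr1d1 and Cry2, and the 2 that fell were Bhlhe40 and Per3. Per2 was not past the threshold, and Bhlhe41 was too low to be tested. The median log2 fold change of the 9 was 0.49, against -0.0028 over all genes tested. In TMM-scaled CPM the 6 exercised livers lay wholly outside the sedentary range in 5 members (Ciart, Per1, Cry1, Cry2 and Nr1d1), all upward. Over all genes tested this held for 22.3%, in either direction. For Nr1d1 it depends on the scaling, as given below. For each of these 5 the two-sided exact permutation test gave p = 0.00216, the smallest p that 6 livers against 6 can give. Groups that do not overlap always reach this p, so it adds nothing to the separation. The same exact test gave p = 0.00866 for Nr1d2 and for Bhlhe40, 0.0238 for Per3 and 0.907 for Per2. In whole liver, more RNA per cell and more cells of a type cannot be told apart.

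**Figure D2:**
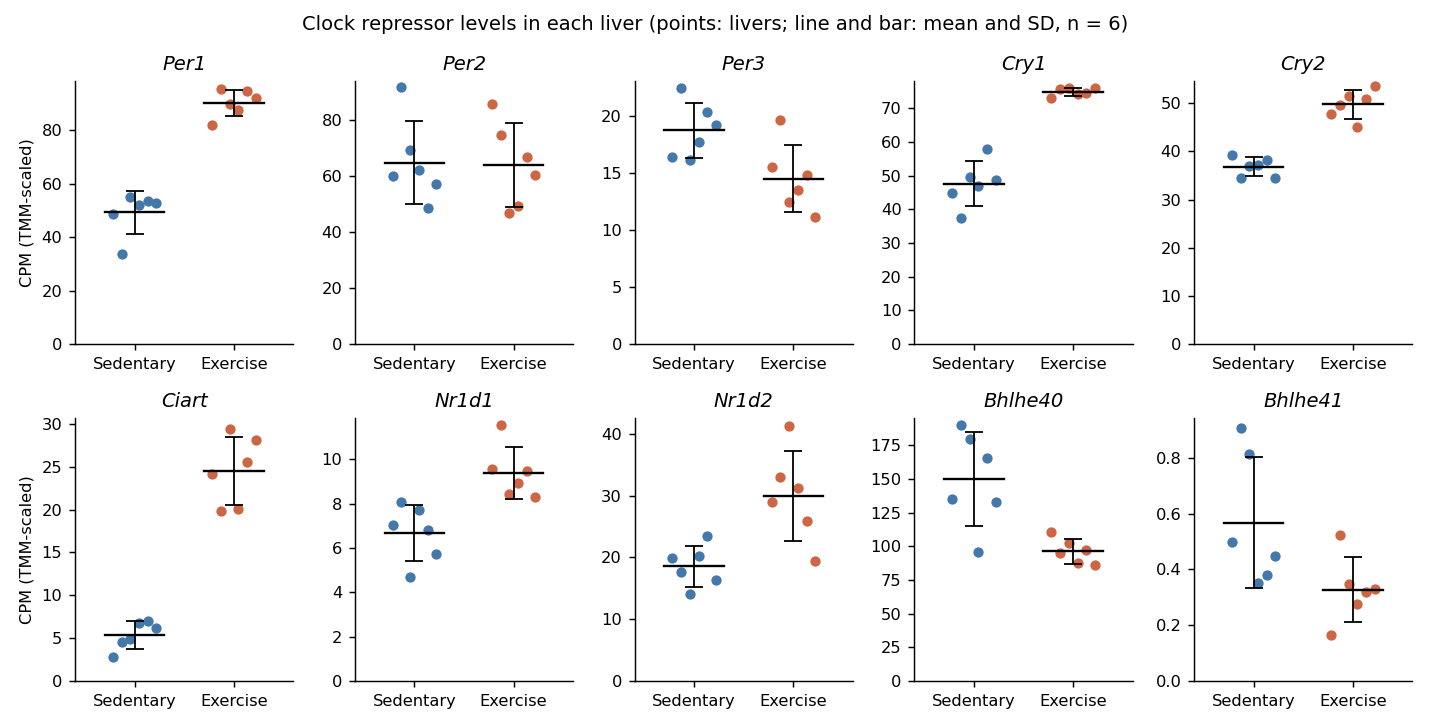
TMM-scaled CPM of each member (y axes start at 0 and differ by gene) in 6 Sedentary and 6 Exercise livers, with 1 point for each liver and the mean and SD in black. The groups are apart in Per1, Cry1, Cry2, Ciart and Nr1d1 and overlap in the other 5 members.

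Of the 3 period genes Per1 rose, Per3 fell and Per2 was not past the threshold. Levels are given as CPM, counts scaled by library size and TMM factor, which compare livers for 1 gene but not genes with each other. Per1 (gene ID 18626, chr11:69095217-69109960, plus strand) ran from 33.8 over a median of 52.4 to 55.0 CPM in sedentary livers, and from 82.1 over 90.9 to 95.4 CPM in exercised livers. The lowest exercised liver was well above the highest sedentary one, and sedentary replicate 2 lay below the other 5 sedentary livers. Per1 rose from 49.3 ± 7.87 (SD, n = 6) to 90.3 ± 4.96 CPM (SD, n = 6). The log2 fold change was 0.87 (SE 0.093, 95% interval 0.68 to 1.07, edgeR adjusted p = 1.90e-06).

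Per2 (gene ID 18627, chr1:91415982-91459324, minus strand), the period gene named above as a target of heat shock factor, ran from 48.4 over 61.0 to 91.5 CPM in sedentary and from 46.6 over 63.5 to 85.5 CPM in exercised livers. The groups covered almost the same range, with sedentary replicate 2 and exercised replicate 1 at the top. The log2 fold change was -0.019 (SE 0.18, 95% interval -0.41 to 0.37, edgeR adjusted p = 0.945). Per2 varied more among livers than Per1 did, with SDs of 14.8 and 14.9 CPM around means of 64.7 and 63.9. Its sign turned when single livers were left out.

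Per3 (gene ID 18628, chr4:151003652-151044665, minus strand), which is less essential to the rhythm than the other two, ran from 16.2 over 18.5 to 22.5 CPM in sedentary and from 11.2 over 14.2 to 19.6 CPM in exercised livers. Of the exercised livers 5 lay below every sedentary one, and replicate 2 lay within the sedentary range. Per3 fell, with a log2 fold change of -0.37 (SE 0.12, 95% interval -0.62 to -0.11, edgeR adjusted p = 0.0219). The call was lost without sedentary replicate 2 (adjusted p = 0.0531) and without exercised replicate 3 (0.0547 in the same edgeR test). Per3 lies inside Camta1 on the same strand in GENCODE, and Camta1 was not past the threshold (3.27 ± 0.723 to 2.79 ± 0.462 CPM, SD, n = 6, edgeR adjusted p = 0.271).

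Both cryptochromes rose. Cry1 (gene ID 12952, chr10:85131700-85185064, minus strand), the stronger repressor of CLOCK and BMAL1, ran from 37.4 over 47.9 to 57.9 CPM in sedentary and from 73.0 over 75.1 to 76.1 CPM in exercised livers. The exercised livers were nearly equal, with an SD of 1.21 CPM against 6.69 CPM in sedentary livers. The log2 fold change of Cry1 was 0.65 (SE 0.076, 95% interval 0.50 to 0.81, edgeR adjusted p = 3.24e-06). Cry2 (gene ID 12953, chr2:92403646-92434043, minus strand) ran from 34.5 over 37.1 to 39.3 CPM and from 45.1 over 50.3 to 53.6 CPM. No exercised liver reached down to a sedentary one in Cry2 either, and its log2 fold change was 0.44 (SE 0.056, 95% interval 0.32 to 0.55, edgeR adjusted p = 9.50e-06). The Cry2 count was not whole in 11 of 12 livers, as where reads are shared by estimate, and D930015M05Rik lies across 23417 of its bases on the other strand.

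Ciart (gene ID 229599, chr3:95878503-95882251, minus strand) had the largest change of the 9 members tested. It ran from 2.75 over 5.58 to 6.96 CPM in sedentary livers and from 19.8 over 24.8 to 29.4 CPM in exercised livers. The groups were far apart, and the lowest sedentary liver was replicate 1. The mean went from 5.36 ± 1.61 (SD, n = 6) to 24.5 ± 3.96 CPM (SD, n = 6), 4.58-fold in the fit (log2 fold change 2.19, SE 0.18, 95% interval 1.80 to 2.59, edgeR adjusted p = 1.53e-06). By size of increase Ciart ranked 22 among the 11537 tested genes whose mean reached 1 CPM, where Per1 ranked 346, Nr1d2 575, Cry1 632, Nr1d1 1088 and Cry2 1289. The antisense gene C920021L13Rik spans all 3749 bases of Ciart in GENCODE. Whether reads were counted by strand is not given in the sources used here, so the pair cannot be told apart.

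Both REV-ERB genes rose. Nr1d1 (REV-ERB alpha, gene ID 217166, chr11:98767932-98775333, minus strand) ran from 4.69 over 6.92 to 8.07 CPM in sedentary and from 8.29 over 9.20 to 11.5 CPM in exercised livers. The groups met closely in TMM-scaled CPM without overlap. In FPKM they overlapped, with 1.76 to 3.22 in sedentary and 2.85 to 4.29 in exercised livers. The log2 fold change was 0.49 (SE 0.12, 95% interval 0.24 to 0.74, edgeR adjusted p = 0.0031). Nr1d1 shares 1075 bases with the opposite-strand gene Thra, a thyroid hormone receptor, and its count was not whole in 12 of 12 livers. Thra was not past the threshold (14.9 ± 1.36 to 14.2 ± 2.03 CPM, SD, n = 6, edgeR adjusted p = 0.548). Nr1d2 (REV-ERB beta, gene ID 353187, chr14:18204054-18239127, minus strand) ran from 14.1 over 18.7 to 23.5 CPM in sedentary and from 19.5 over 30.1 to 41.3 CPM in exercised livers. Of the exercised livers 5 lay above every sedentary one and replicate 6 lay within their range. The log2 fold change of Nr1d2 was 0.69 (SE 0.17, 95% interval 0.33 to 1.05, edgeR adjusted p = 0.00525).

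Of the DEC genes, Bhlhe40 fell and Bhlhe41 had too few counts to be tested. Bhlhe40 (DEC1, gene ID 20893, chr6:108660629-108666925, plus strand) ran from 95.9 over 151 to 190 CPM in sedentary and from 85.9 over 96.1 to 111 CPM in exercised livers. The sedentary livers were widely spread, and sedentary replicate 4, the lowest, sat among the exercised livers. Bhlhe40 fell from 150 ± 35.2 (SD, n = 6) to 96.4 ± 9.24 CPM (SD, n = 6). The log2 fold change was -0.64 (SE 0.14, 95% interval -0.95 to -0.33, edgeR adjusted p = 0.00309). Bhlhe41 (DEC2, gene ID 79362, chr6:145858243-145865558, minus strand) had 7 to 19 counts in sedentary and 3 to 10.1 counts in exercised livers. It ran from 0.353 over 0.473 to 0.907 CPM and from 0.164 over 0.326 to 0.522 CPM, with 5 exercised livers below all sedentary ones. Without the filter on low counts its log2 fold change was -0.79 and not past the threshold (edgeR adjusted p = 0.0851, and 0.0286 before adjustment). The exact permutation test gave a log2 difference of -0.35 with p = 0.0368, 1 of 10 such tests.

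**Figure D3:**
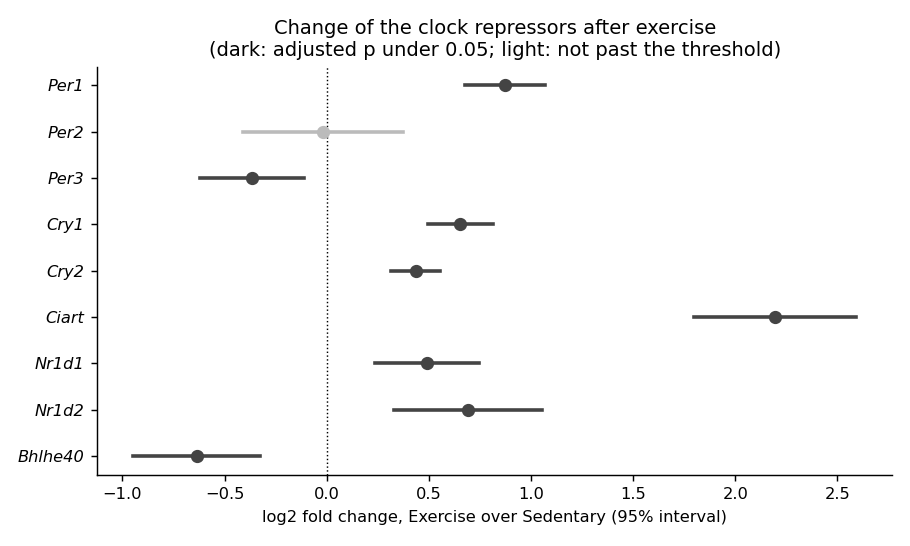
Log2 fold change of Exercise over Sedentary (x axis, points) with its 95% interval (bars) for the 9 members tested, dark where the adjusted p passed 0.05. Ciart lies far to the right at 2.19, Per3 and Bhlhe40 lie left of 0, and the interval of Per2 spans 0.

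Ratios between paralogs within a liver do not depend on the scaling of that liver, and they were taken on FPKM, which is scaled by transcript length. Per1 was level with Per2 in sedentary livers (median ratio 0.992, from 0.436 to 1.36) and 1.77 times Per2 in exercised livers (1.16 to 2.33). This ratio rose by 0.91 on the log2 scale of FPKM + 0.01 (two-sided exact permutation p = 0.00433, adjusted over 6 ratios 0.00866), although 1 exercised liver overlapped the sedentary range in the plot of ratios. The ratio of Per1 to Per3 rose from a median of 3.61 (1.89 to 4.32) to 8.22 (6.17 to 10.6) with no overlap (log2 difference 1.27, exact permutation p = 0.00216, adjusted 0.00866). Among the period genes the share held by Per1 thus grew against each of the others. For Per2 to Per3 the ratio went from 3.77 to 4.40 and was not past the threshold (log2 difference 0.36, exact permutation p = 0.0628, adjusted 0.0942).

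Cry1 gained on Cry2. Their ratio went from a median of 1.68 (1.40 to 1.89) to 1.94 (1.83 to 2.13), a log2 difference of 0.24 (exact permutation p = 0.00433, adjusted 0.00866). The ratio of Nr1d1 to Nr1d2 was 0.597 and 0.575 at the median, and its difference of -0.17 was not past the threshold (exact permutation p = 0.372, adjusted 0.447). Bhlhe40 was 463 and 516 times Bhlhe41, with a log2 difference of 0.096 that rests on the few Bhlhe41 reads (exact permutation p = 0.703).

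**Figure D4:**
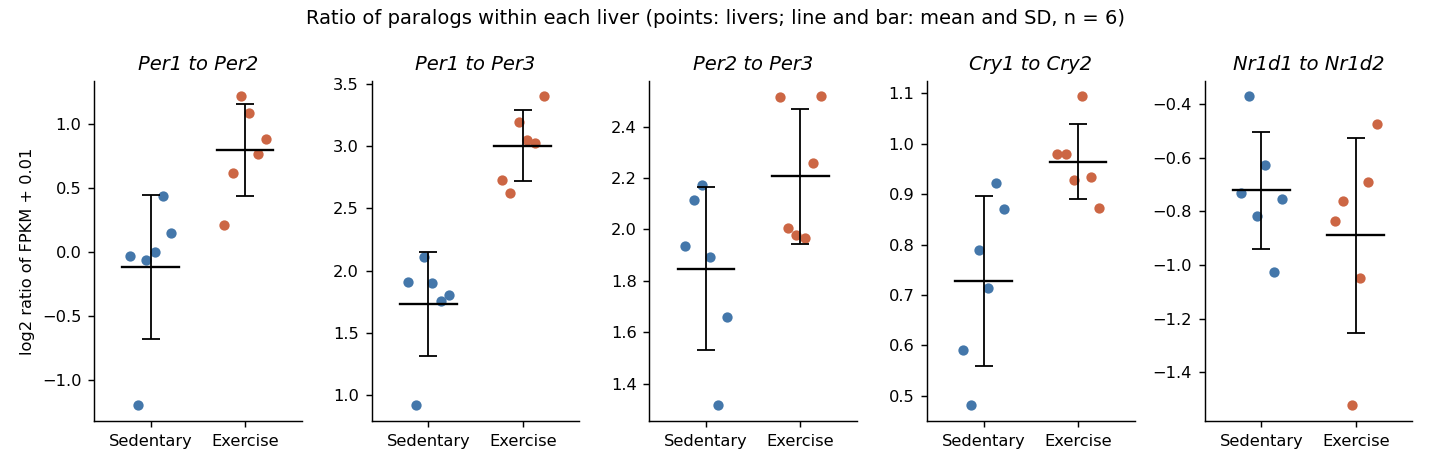
Log2 ratio of FPKM + 0.01 of paralog pairs within each liver (y axes differ and do not start at 0), with 1 point for each of 6 Sedentary and 6 Exercise livers and the mean and SD in black. Per1 to Per3 is apart between the groups, Per1 to Per2 and Cry1 to Cry2 are shifted up with overlap, and the other 2 pairs overlap widely.

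Levels of different genes were set side by side as FPKM. In sedentary livers Bhlhe40 was the most abundant repressor transcript at 50.6 ± 12.2 FPKM (SD, n = 6) and apart from all others. Cry1 (16.5 ± 1.73), Per2 (12.0 ± 3.31), Per1 (10.9 ± 1.52) and Cry2 (9.93 ± 0.373) followed, each overlapping its neighbour in that order. Below a gap came Nr1d2 (4.17 ± 0.667), Ciart (3.73 ± 1.13), Per3 (3.28 ± 0.505) and Nr1d1 (2.55 ± 0.526), again overlapping from one to the next. Bhlhe41 was last at 0.10 ± 0.0452 FPKM.

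In exercised livers Bhlhe40 was still first at 30.4 ± 2.81 FPKM (SD, n = 6), but Cry1 had come close with 24.4 ± 0.876 FPKM. These were apart from each other and from the rest. Per1 (18.8 ± 1.45), Ciart (15.5 ± 2.17), Cry2 (12.5 ± 0.828), Per2 (11.1 ± 2.76), Nr1d2 (6.30 ± 1.42), Nr1d1 (3.35 ± 0.518) and Per3 (2.38 ± 0.560) followed with each neighbour overlapping, and Bhlhe41 was at 0.0517 ± 0.0204 FPKM. Ciart went from rank 7 to rank 4 among the 10, and Per3 and Nr1d1 changed places. Against TMM-scaled CPM, FPKM was lower after exercise by a log2 difference of -0.0936 (Per1) to -0.14 (Bhlhe41), so a change read from FPKM is that much smaller or more negative. Against counts scaled by library size alone, a setting chosen after seeing the data, the differences ran from -0.0441 to 0.00238.

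**Figure D5:**
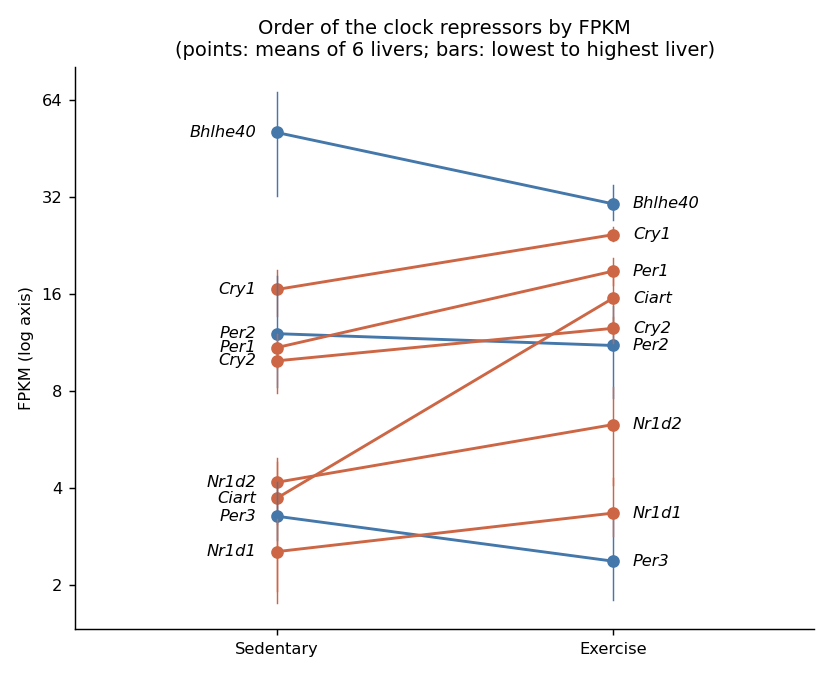
Mean FPKM (y axis, log scale) of 9 members in Sedentary and Exercise livers, n = 6 each, with bars from the lowest to the highest liver and orange lines for means that are higher after exercise. The Ciart line crosses Nr1d2, Cry2 and Per2, and the Bhlhe40 line comes down toward Cry1; Bhlhe41 is left out because it lies below 0.2 FPKM.

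Among livers with the same treatment, Sedentary replicate 2 was the highest of its group in 4 of the 9 tested members and the lowest in 3, where it was highest or lowest in 38.8% of all genes tested. It held the top of Per2, Per3, Nr1d1 and Bhlhe40 and the bottom of Per1, Cry1 and Cry2. Exercised replicate 6 was lowest in 4 members (Per3, Nr1d1, Nr1d2 and Bhlhe40) and highest in 2, where it was highest or lowest in 31.2% of all genes tested. The coefficient of variation was lower after exercise in 5 of 9 members.

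Over 90 within-group relations (45 pairs of members in each group) none passed the threshold after Benjamini-Hochberg adjustment, with 0.125 the lowest adjusted p for Pearson's r and 0.25 for Spearman's rho, both by exact permutation of pairings. With 6 livers the smallest exact p is 0.00139 for r and 0.00278 for rho, so a single relation could not pass over 90. The relations also moved with the scaling, since under library size alone r changed by up to 0.934 and changed sign in 13 of the 90. The strongest was Per3 with Nr1d1 in exercised livers, with r = 0.98 (exact permutation p = 0.00139) and rho = 1.0 (exact permutation p = 0.00278), and r = 0.99 without the 2 livers farthest from the median, and it was 0.98 under library size alone. The same pair in sedentary livers gave r = 0.52 (exact permutation p = 0.304) and rho = 0.54 (exact permutation p = 0.297). Per1 with Cry1 in sedentary livers gave r = 0.86 (exact permutation p = 0.0125, adjusted 0.458) and rho = 0.94 (exact permutation p = 0.0167, adjusted 0.661), but r was 0.34 without the 2 farthest livers, so the relation rests on those livers.

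Over all 12 livers, after taking out each group's mean, the member most like Per1 was Cry1 (Pearson's r = 0.84) and the member most like Per3 was Nr1d1 (r = 0.67). Among 11528 other genes whose mean reached 1 CPM, the highest r was 0.96 for Per1 (Etfbkmt), 0.87 for Per3 (Snupn), 0.94 for Cry1 (Sdhc) and 0.90 for Cry2 (Rhbdf2). It was 0.96 for Nr1d2 (Eea1), 0.93 for Ciart (Pole4) and 0.93 for Bhlhe40 (Det1). Each is the top of 11528 correlations over 12 points that share library preparation and scaling, and is given as a description.

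The activators and output factors of the clock changed beside the repressors. Of 10 tested genes on that list 5 rose, 2 fell and 3 were not past the threshold, with a median log2 fold change of 0.40. Over all genes tested 21.1% rose and 21.3% fell. Arntl, which encodes BMAL1 and is a target of REV-ERB, rose by 0.39 (SE 0.056, adjusted p = 2.60e-05), and Clock rose by 0.40 (SE 0.086, adjusted p = 0.0012). Thus the REV-ERB genes and Arntl were both higher at this single time. Rora, the receptor that opposes REV-ERB, rose by 0.67 (adjusted p = 2.89e-06) in edgeR's test, and all these values are on the log2 scale.

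The D-box factors split. Nfil3, the D-box repressor, rose by 0.92 (adjusted p = 1.08e-07) and the activator Tef by 0.40 (adjusted p = 2.89e-05), while the activator Dbp, a direct target of CLOCK and BMAL1, had a log2 fold change of -0.62 (edgeR adjusted p = 0.00305). In Arntl, Clock, Rora, Tef and Nfil3 the groups did not overlap, beside 22.3% of all genes tested in either direction. The 3 genes not past the threshold had log2 fold changes of -0.15 (Hlf, adjusted p = 0.0859), 0.58 (Npas2, adjusted p = 0.307) and -0.46 (Arntl2, adjusted p = 0.263).

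Proteins that modify PER and CRY gave a mixed list, with 9 of 24 genes higher and 4 lower (54.2% changed, median log2 fold change 0.083). The smallest p-values were those of Csnk2a2, a casein kinase 2 subunit (0.43, adjusted p = 6.41e-05), Tipin, the partner of Timeless (-0.62, adjusted p = 0.000511), and Fbxl21, a ubiquitin ligase subunit for CRY (-0.84, adjusted p = 0.000556). In the corepressor complex that REV-ERB recruits, 2 of 6 genes fell and none rose (33.3% changed, median -0.079). The histone deacetylase Hdac3 was among them (log2 fold change -0.26, edgeR adjusted p = 0.00178). Both lists stand beside 42.4% changed over all genes tested.

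Of 13 liver genes known as clock-controlled, 53.8% changed, against 42.4% of all genes tested, with a median log2 fold change of 0.20. Of these 13, 6 rose, 1 fell and 6 were not past the threshold. The 1 was Wee1, a cell cycle kinase, whose groups overlapped (log2 fold change -0.51, edgeR adjusted p = 0.0479) and whose call was lost in 10 of the 12 fits that left out 1 liver and in 2 of 9 other alternatives. Usp2, a ubiquitin protease, rose by 1.25 (adjusted p = 9.96e-09), Lonrf3 by 0.89 (adjusted p = 9.01e-07) and Noct, which encodes nocturnin, by 1.29 (adjusted p = 7.67e-06). These 3 were named because they have the smallest p of the list. Their groups did not overlap, and neither did those of Por, Upp2 and Rgs16, the other genes that rose. Over all genes tested the groups did not overlap in 22.3%.

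Lists of the pathways known to induce Per1 or Per2 quickly were also counted. Like the other lists, they were written by hand with earlier results of these data known, so their shares are descriptions. Of 14 tested genes of the CREB pathway 11 rose and 1 fell (85.7% changed, median log2 fold change 0.50), with Junb, an AP-1 subunit, up by 1.52 (adjusted p = 7.21e-07), Creb1 up by 0.61 (adjusted p = 2.10e-06) and the cAMP phosphodiesterase Pde4d at -1.04 (adjusted p = 2.76e-06). Of 11 glucocorticoid-responsive genes 10 rose (90.9%, median 1.71), among them Tat, a tyrosine-degrading enzyme, by 1.83 (adjusted p = 1.03e-09), Ddit4, an mTORC1 inhibitor, by 3.74 (adjusted p = 1.47e-06) and Tsc22d3, which encodes GILZ, by 1.21 (adjusted p = 4.10e-06). Of 10 tested genes of the heat shock response 8 rose (80.0%, median 0.76), among them the chaperone genes Dnajb1 by 1.11 (adjusted p = 2.22e-07), Hsph1 by 1.41 (adjusted p = 4.56e-06) and Hspa8 from a mean of 578 to 1640 CPM (adjusted p = 1.57e-05). Changes without a unit are log2 fold changes, and all come from the same edgeR fit. All 3 lists had more genes higher than lower. Fos, 1 of the 11 higher genes of the CREB list, had means of 0.299 CPM in sedentary and 1.42 CPM in exercised livers. At this level it could pass the filter on low counts mainly through the exercised livers, so it adds little to that count. Over all genes tested 42.4% changed, 21.1% higher and 21.3% lower. Which pathway, if any, acts on Per1 or Per2 was not tested.

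The livers carried their defining markers. All 8 hepatocyte markers were counted, and their summed level ran from 116894 to 157662 CPM in sedentary and from 145509 to 166785 CPM in exercised livers, with Alb, Hnf4a and Tat higher (Tat is on the glucocorticoid list too). No gene of 7 macrophage, 5 cholangiocyte and 5 red cell markers was past the threshold. Of 6 sinusoidal endothelial markers 2 were higher and 1 lower, and of 7 stellate cell markers 2 were lower. Of the lymphocyte markers 1 was high enough to test and of the neutrophil markers 2, and none of these was past the threshold. Of 11 heart and skeletal muscle markers 6 were tested and all 6 were lower, with a summed level of 12.5 to 26.7 CPM in sedentary and 0.58 to 13.5 CPM in exercised livers, the highest being exercised replicate 1 (1.39 CPM at most in the other 5). Muscle genes this low after exercise could pass the filter on low counts mainly through the sedentary livers. The shared direction of the 6 therefore adds little to the summed levels, and the source of the lower muscle levels was not tested. None of the markers was at 0 in every liver. The part of these shifts in the members' values was not tested. Without exercised replicate 1, the same 6 and 2 counts of members higher and lower were found.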

How the data were processed

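Liver RNA of 6 Sedentary and 6 Exercise mice was analysed, grouped by the sample labels. The authors' estimated counts and FPKM values, deposited in 1 table, were made with Bowtie2 2.3.4.3 and RSEM 1.3.1 on mm10 per the submitters' processing notes. The annotation and strand setting are not given in the sources used here. Estimated counts are unscaled as deposited, 31.3% are not whole, and they were rounded. FPKM values are scaled by the authors for length and depth. Totals were 18971992 to 19324461 (Sedentary) and 18745379 to 19001010 counts (Exercise). Counting error weighs most on the members with few counts. In sedentary livers these were Bhlhe41 (7 to 19 counts), Ciart (55 to 134) and Nr1d1 (92.5 to 169). No 2 of 66 library pairs were identical.

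The main test was edgeR (version 4.0.16, R version 4.3.3). It used TMM factors, dropped low genes by filterByExpr at 10 counts, fitted the robust quasi-likelihood model, and adjusted p over 12344 genes by the Benjamini-Hochberg method at a threshold of 0.05. Adjusted p-values of single genes come from this fit, except for Bhlhe41 (no filter) and where a liver is said to be left out. Exact permutation tests (two-sided, over all relabellings of the 12 livers) used log2(CPM + 0.5) for members and FPKM + 0.01 for ratios. Alternatives were other filters, scalings, pseudocounts, DESeq2 1.42.0, limma 3.58.1, a replicate block and leaving out each liver. Scripts were tested on simulated data. Gene coordinates are from GENCODE M21 on GRCm38. Python 3.11.15 with scipy 1.17.1 was used for the rest. The members and gene lists were chosen with earlier results of these data known, and lists were written by hand. Named genes are the members, the tested genes of the activator list, the 3 list genes with the smallest adjusted p past the threshold (and Wee1 and Fos, named after their values were seen), and for each member the gene most like it. Some genes that this rule names are not reported here.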

Additional observations from a re-analysis of the deposited data

Results flagged for a closer look

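Per1 in Sedentary replicate 2 lay far from its group. Its level was 33.8 CPM, the next sedentary liver was at 48.5 CPM, and this gap was 0.694 of the whole sedentary range, over Dixon's 95% limit for 6 livers. In all, 20 sets of 6 livers were checked in this way, and chance would flag about 1. Without this liver the log2 fold change of Per1 went from 0.87 to 0.79, the lowest value when each liver was left out in turn, and the call was kept.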

How the results depend on the processing

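In 9 alternatives that kept all livers (other filters, scalings, tests and the replicate block) 8 members were called, 6 higher and 2 lower, and without single livers 7 or 8 members, with 6 higher and from 1 to 2 lower. With library size alone 1767 genes were higher and 3735 lower, against 2603 and 2626 with TMM. With limma on log2(FPKM + 0.1), which changes unit, scaling and test at once, 1702 were higher and 3714 lower. These settings moved the median of all genes to -0.098 and -0.093 (log2). Without single livers the log2 fold change of Per2 ran from -0.12 to 0.11 and its difference in the exact test from -0.11 to 0.082, and that of Per3 from -0.47 to -0.29. With the replicate numbers as pairs (replicate block), 4956 genes changed. The same-number correlations of -0.11 to 0.17 do not pair the livers. A paired sign-flip test of the ratios left Per1 to Per2 at 0.91, Per1 to Per3 at 1.27 and Cry1 to Cry2 at 0.24, each with an adjusted p of 0.0625, where the smallest raw p of 6 pairs is 0.0313. The replicate block changed no call of a member. Bhlhe40 to Bhlhe41 turned to -0.32 with FPKM + 0.1 and ran from -0.056 to 0.24 without single livers. Hlf passed the threshold under upper quartile scaling, library size alone, limma on log2(FPKM + 0.1) and without Sedentary replicate 3. FPKM per CPM, lower after exercise in all 10 members with TMM, turned with library size alone for Per1 (0.00238), Cry1 (9.4e-05), Nr1d1 (0.000198) and Bhlhe40 (0.00021), a setting chosen after seeing the data. Bhlhe41 had at most 19 counts in a liver.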
